A study of Mus musculus with 6 samples.

Results

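Interferon-induced GTPases are examined here in bone marrow-derived mesenchymal stromal cells (MSCs), through 9 genes that were chosen by symbol: the guanylate-binding genes Gbp2, Gbp3 and Gbp7, the immunity-related genes Irgm1, Irgm2, Igtp and Iigp1, and the myxovirus resistance genes Mx1 and Mx2. All 9 were found among the 23420 genes of the count table. The study compared MSCs that carry the thymoproteasome (MSC-TPr) with control MSCs (Ctl MSC) and asked how the thymoproteasome, the proteasome form of the thymic cortex, affects antigen presentation. RNA-seq was performed on 6 libraries, 3 for each of these labels. The MSCs were grown from the bone marrow of young female C57BL/6 mice. The MSC-TPr cells received a retroviral construct encoding β1i (Psmb9), β2i (Psmb10), β5t (Psmb11) and a green fluorescent marker, and Ctl MSC the empty backbone of the same construct, so that all 6 libraries come from transduced cells. The labels name no interferon treatment of the sequenced cells. Neither the labels nor the methods say that libraries of a group came from separate animals or cultures, and p-values here measure only the spread between these libraries, which may be technical.

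These GTPases belong to the cell-autonomous arm of the interferon response. Type I interferons act through the receptor chains Ifnar1 and Ifnar2, and a complex that holds Stat2 and Irf9 then binds an interferon-stimulated response element (ISRE) in promoters, while interferon-gamma acts through Ifngr1 and Ifngr2 and the gamma-activated site (GAS). Guanylate-binding proteins (GBPs) and immunity-related GTPases (IRGs) assemble on membranes of vacuoles that hold bacteria or parasites, and Mx proteins, which are relatives of dynamin, act on incoming viruses. In MSCs, interferon-gamma is known for raising antigen presentation.

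The promoters of these genes were examined first, since the members had similar patterns across the libraries, as described further on. RefSeq promoter sequences (GRCm38.p6, the assembly also called mm10) were matched by symbol for 6 of the 9 genes, and Iigp1, Mx1 and Mx2 had no entry. The 250 bases upstream of each RefSeq start were searched on both strands for the ISRE core, GAAA followed after any 2 bases by GAAA (TTTC and TTTC on the other strand), and for the GAS core, TTC followed after any 3 bases by GAA, which reads the same on both strands. Matches of the cores were allowed to overlap. All 6 genes held an ISRE match in a promoter, and 3 of them, Gbp7, Irgm2 and Igtp, also held a GAS match. Among all 32851 promoters of the table, 2.98% held an ISRE match in this window, 7.02% a GAS match and 0.332% both. Counted by gene, 936 of 27025 held an ISRE match and 2197 a GAS match. The members were chosen as interferon-induced genes, so their share with an ISRE match is a description and not a test. A match is a description of the letters and not a measured binding site. The 110 bases upstream of the start are printed here on the gene's strand, with matches to either core in capitals, because they hold every match found in the 7 promoters of these genes.
Gbp2: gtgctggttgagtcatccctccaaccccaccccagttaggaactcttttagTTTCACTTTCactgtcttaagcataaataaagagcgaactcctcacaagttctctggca
Gbp3: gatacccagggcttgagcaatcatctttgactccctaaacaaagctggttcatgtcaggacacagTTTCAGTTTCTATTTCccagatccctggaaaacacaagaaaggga
Gbp7: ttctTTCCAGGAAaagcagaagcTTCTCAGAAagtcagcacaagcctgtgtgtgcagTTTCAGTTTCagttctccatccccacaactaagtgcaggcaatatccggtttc
Irgm1: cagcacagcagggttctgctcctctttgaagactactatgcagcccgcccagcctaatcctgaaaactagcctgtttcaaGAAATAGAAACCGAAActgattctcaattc
Irgm2: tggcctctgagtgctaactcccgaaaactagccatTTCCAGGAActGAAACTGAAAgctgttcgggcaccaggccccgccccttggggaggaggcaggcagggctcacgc
Igtp: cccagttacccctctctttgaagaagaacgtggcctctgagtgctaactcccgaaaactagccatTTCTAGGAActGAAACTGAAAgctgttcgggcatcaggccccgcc

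These stretches lie at chr3:142620553-142620662 (Gbp2, plus strand), chr3:142559934-142560043 (Gbp3, plus), chr3:142530226-142530335 (Gbp7, plus), chr11:48871421-48871530 (Irgm1, minus), chr11:58214867-58214976 (Irgm2, plus) and chr11:58199446-58199555 (Igtp, plus) of mm10. They end at starts given by RefSeq, which can differ from the outer gene limits of the GENCODE annotation used further on, so that those of Irgm1 and Irgm2 lie within the limits of their genes and those of Gbp2 and Gbp3 in part. The ISRE match began 59 bases upstream of the start in Gbp2, 53 in Gbp7, 64 in Irgm2 and 34 in Igtp. In Gbp3 and in Irgm1 a pair of ISRE matches overlapped, beginning 45 and 39 bases upstream in Gbp3 and 30 and 24 in Irgm1. A further RefSeq promoter of Gbp3 held no match. Irgm2 and Igtp carried the GAS match directly before the ISRE match, with 2 bases between them in the printed lines. The upstream regions of Irgm2 and Igtp shared an identical run of 55 bases, whereas the longest run shared by any other pair of these promoters was 13 bases, between Gbp3 and Gbp7. The 55-base run began at −215 from the start in Irgm2 and at −181 in Igtp. It lay outside the printed lines and held no ISRE or GAS match.

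**Figure D1:**
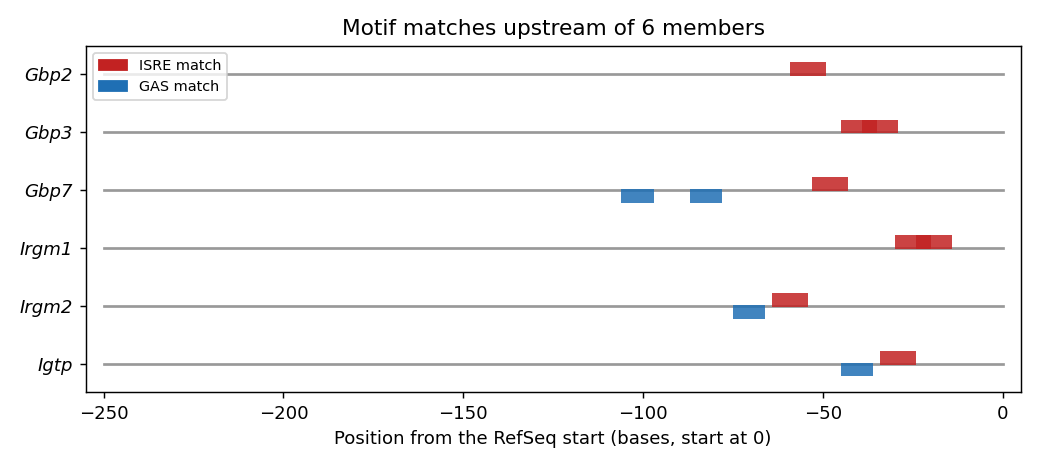
Positions of ISRE matches (red) and GAS matches (blue) in the 250 bases upstream of the RefSeq start of 6 GTPase genes, with distance from the start in bases on the horizontal axis. Every match lies within 110 bases of the start, and Gbp7, Irgm2 and Igtp carry both kinds.

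Library depth, as reads counted on genes, ran from 16158756 to 22158887, and 3 reads correspond to 0.139 to 0.181 CPM (reads of a gene per 1000000 reads on genes, scaled by edgeR's TMM method), a limit that covers counting error only. The labels were checked on the transduced genes. In libraries 1, 2 and 3, Psmb10 had 27.8, 8.81 and 8.38 CPM under the Ctl MSC label against 8.97, 17.3 and 15.2 in MSC-TPr. Psmb9 had 3.38, 0.801 and 0.827 CPM against 0.554, 1.24 and 1.21, and Psmb11 had 1 to 6 reads per library. None of these genes separated the labels over 6 libraries. Over libraries 2 and 3, Psmb9 and Psmb10 were higher in MSC-TPr without overlap, while both were highest in Ctl MSC 1. Whether transcripts of the construct were counted on them is not given in the sources used here. Each direction given here is therefore one between library labels. Ctl MSC 1 and MSC-TPr 1 stood apart from the other libraries of their label. Averaged over 20 cell division genes, log2 CPM was 6.41 to 6.55 in Ctl MSC 1, MSC-TPr 2 and MSC-TPr 3 and 3.16 to 3.24 in the other libraries, and the first principal component, with 58.5% of the variance, split the libraries in the same way. The second component, with 28.3%, separated the labels (−48.9 to −19.6 in Ctl MSC and 15.6 to 49.1 in MSC-TPr). Whether the labels of Ctl MSC 1 and MSC-TPr 1 were exchanged was not tested, and the results over 6 libraries rest on these labels as given. With these labels exchanged, Psmb9 and Psmb10 would be higher in MSC-TPr without overlap, and each of the GTPase genes would overlap between the labels. Results are therefore given over all 6 libraries and over libraries 2 and 3 of each label. In libraries 2 and 3, cell division was low in Ctl MSC and high in MSC-TPr, so label and cell division cannot be told apart there. All 20 cell division genes were called higher in MSC-TPr in that fit. All 12 MSC markers were in the table, but Thy1 (CD90) had a single read in 1 library. Eng (CD105) had 142 to 204 CPM, and Nt5e (CD73) 11.4 to 20.2 CPM under the Ctl MSC label against 2.66 to 5.24 in MSC-TPr. Cd44 had 536, 144 and 142 CPM in Ctl MSC 1, 2 and 3 against 205, 519 and 532 in MSC-TPr. Over libraries 2 and 3, 3 of the 11 MSC markers tested were called higher (Cd44, Col1a1, Col1a2) and Nt5e lower, and their part in the results was not tested. Macrophages also express these GTPases. Of their markers, C1qa, C1qb and H2-Ab1 had 0 reads in every library and Ptprc (CD45) at most 0.0928 CPM. The 13 myeloid markers found in the table summed to 12.3 to 15.04 CPM under the Ctl MSC label against 13.3 to 18.05 in MSC-TPr, mostly from Cd14 and Cd68. Endothelial markers summed to at most 3.32 CPM and lymphoid markers to at most 0.214 CPM.

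Every one of the 9 GTPase genes was lower in each library labelled MSC-TPr than in each library labelled Ctl MSC. Among all 11974 genes tested, 12.1% were lower without overlap in this way. The 8 genes that passed the filter on low counts had log2 fold changes from −4.37 to −0.96 over all 6 libraries, with a median of −2.58 against 0.01 for all genes tested. With edgeR's quasi-likelihood test over all 6 libraries, none of the 8 had an adjusted p under 0.05 (0.0947 to 0.293), while all 8 had an unadjusted p under 0.05, as did 15% of all genes tested. A gene was called where the adjusted p was under 0.05 and the log2 fold change at least 0.5 in size, and 0.401% of all genes tested were called lower. With libraries 2 and 3 of each label, 7 of the 8 were called lower and none higher, where 19.4% of all 12122 genes tested were called lower and 20.6% higher. DESeq2 called 8 of the 9 lower over all 6 libraries, where it called 3.39% of genes lower. In bulk RNA, fewer cells that express a gene and less RNA per cell cannot be told apart.

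Gbp2, Gbp3 and Gbp7 lie in 1 cluster on chromosome 3 of mm10, Gbp7 from 142530342 to 142550149, Gbp3 from 142560026 to 142573209 and Gbp2 from 142620602 to 142638008, all on the plus strand. GBPs of this cluster coat pathogen-containing vacuoles and bacteria, and Gbp2 is held on membranes by a lipid anchor. Gbp2 reached 40.2, 9.45 and 9.71 CPM under the Ctl MSC label against 3.93, 3.02 and 4.22 in MSC-TPr, with libraries 1, 2 and 3 in order here and throughout. Gbp3 had 38.2, 9.83 and 8.99 CPM under the Ctl MSC label against 1.33, 1.95 and 1.90 in MSC-TPr. Gbp7 had 30.3, 7.05 and 7.67 CPM under the Ctl MSC label against 2.66, 1.89 and 3.11 in MSC-TPr. All 3 genes were highest in Ctl MSC 1, alike in Ctl MSC 2 and 3, and lowest in the MSC-TPr libraries, with no overlap between the labels.

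Among these genes Gbp3 had the largest log2 fold change in both fits. Its group means were 19.0 ± 16.7 CPM under the Ctl MSC label against 1.73 ± 0.346 in MSC-TPr (SD, n = 3 each), which gave −3.45 on the log2 scale (edgeR adjusted p = 0.0959, SE 0.660) over all 6 libraries. Over libraries 2 and 3 it was −2.28 (edgeR adjusted p = 0.00060, SE 0.198), from 9.41 ± 0.592 to 1.93 ± 0.0356 CPM (SD, n = 2 each). Gbp2 gave −2.41 over 6 libraries (edgeR adjusted p = 0.183, SE 0.633) and −1.39 over 4 (edgeR adjusted p = 0.0043, SE 0.218). Gbp7 gave −2.55 (edgeR adjusted p = 0.174, SE 0.644) and −1.53 (edgeR adjusted p = 0.0062, SE 0.269). DESeq2 called all 3 over 6 libraries. Exons of Gbp7 overlap those of Gm43802 on the same strand, and 12.7% of its 50-base words occur in another gene's transcripts, against 3.75% for Gbp3 and 2.03% for Gbp2, so the count of Gbp7 is the least certain of the 3.

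**Figure D2:**
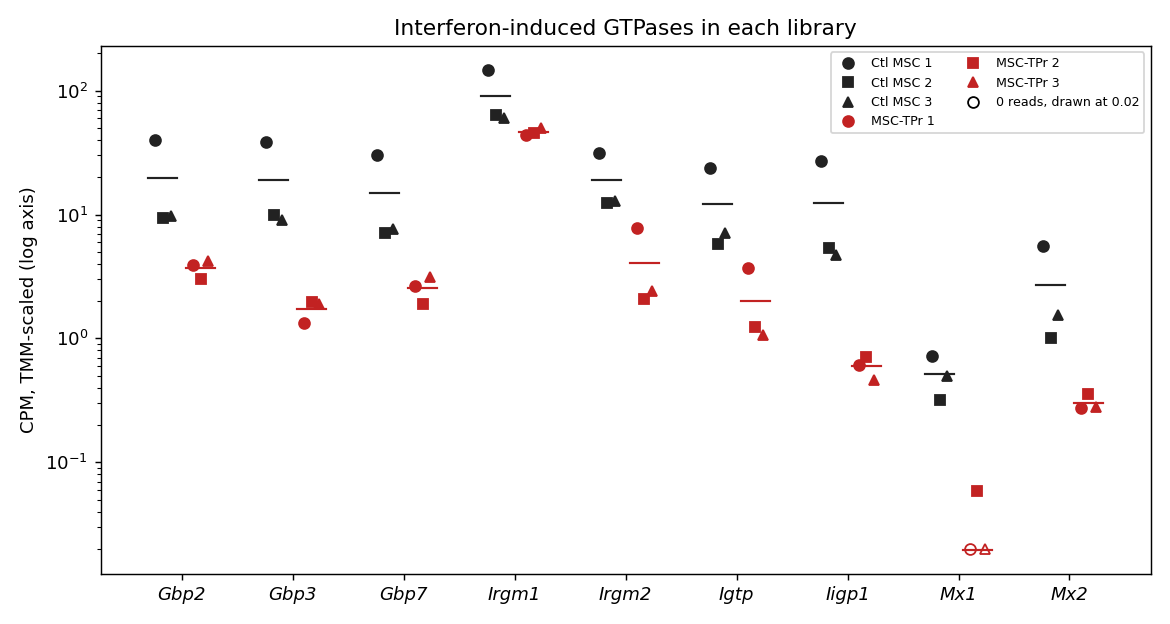
CPM (TMM-scaled, log axis) of each of the 9 GTPase genes by label (Ctl MSC in black, MSC-TPr in red), 1 point per library, with horizontal lines at the group means of 3 libraries and open symbols at 0.02 for 0 reads. For each gene all MSC-TPr points lie below all Ctl MSC points, and Ctl MSC 1 (black circle) is the highest.

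Among the IRGs, Irgm1, Irgm2 and Igtp (also called Irgm3) encode the regulatory members, which sit on the cell's own membranes and keep the effector IRGs from acting there, and Iigp1 (Irga6) encodes an effector that is loaded onto parasite vacuoles. Irgm1, on chromosome 11 from 48861968 to 48871683 on the minus strand, reached 147, 63.1 and 60.6 CPM under the Ctl MSC label against 43.7, 45.2 and 50.3 in MSC-TPr. The labels did not overlap, but the lowest Ctl MSC library was 1.21 times the highest MSC-TPr library, the narrowest gap of the 9 genes. Irgm1 also gave the smallest log2 fold change, −0.96 over 6 libraries (edgeR adjusted p = 0.293, SE 0.365) and −0.37 over libraries 2 and 3 (edgeR adjusted p = 0.0457, SE 0.119), the latter short of the 0.5 required for a call. DESeq2 did not call it either (adjusted p = 0.177).

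Irgm2 and Igtp are neighbours further along chromosome 11, from 58199618 to 58222782 and from 58199556 to 58207591, both on the plus strand. Irgm2 had 31.1, 12.4 and 12.96 CPM under the Ctl MSC label against 7.81, 2.07 and 2.41 in MSC-TPr. Igtp had 23.7, 5.82 and 7.06 CPM under the Ctl MSC label against 3.71, 1.24 and 1.07 in MSC-TPr. In both genes MSC-TPr 1 stood above the other MSC-TPr libraries, 3.48 times their mean for Irgm2 and 3.21 times for Igtp, whereas this ratio was 0.690 to 1.09 for the other 6 genes tested. The shared 55-base run of their upstream regions was described with the promoters above. Their exons overlap in part on the same strand, and 7.77% of the 50-base words of Irgm2 and 11.8% of those of Igtp occur in another gene's transcripts, mostly in each other's, so reads could be split between them. What part this has in their likeness was not tested.

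Irgm2 fell by 2.49 on the log2 scale over libraries 2 and 3 (edgeR adjusted p = 0.00039, SE 0.189) and Igtp by 2.48 (edgeR adjusted p = 0.00094, SE 0.247). Over all 6 libraries they gave −2.20 (edgeR adjusted p = 0.208, SE 0.645) and −2.60 (edgeR adjusted p = 0.205, SE 0.751). Of the 8 members tested, Irgm2 was the one with a larger change over 4 libraries than over 6. DESeq2 called both over 6 libraries.

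Iigp1, on chromosome 18 from 60376027 to 60392634 on the plus strand, showed the largest log2 fold change of the 8 members tested. It had 27.0, 5.34 and 4.69 CPM under the Ctl MSC label against 0.609, 0.710 and 0.464 in MSC-TPr. These levels rest on 85 to 447 reads and on 10 to 12 reads. Even the lowest Ctl MSC library was 6.61 times the highest MSC-TPr library. The log2 fold change was −4.37 over 6 libraries (edgeR adjusted p = 0.0947, SE 0.830) and −3.11 over libraries 2 and 3 (edgeR adjusted p = 0.00087, SE 0.300). DESeq2 gave the lowest adjusted p of the 9 genes for Iigp1, 1.03e-06.

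Mx1 and Mx2 lie on chromosome 16, from 97447035 to 97462907 on the minus strand and from 97535308 to 97560900 on the plus strand, with Fam3b between them. Mouse Mx1 acts on influenza virus in the nucleus and Mx2 acts in the cytoplasm, and C57BL/6 mice are known to carry inactive alleles of both. The GENCODE annotation used here lists Mx1 as protein-coding and Mx2 as a polymorphic pseudogene. Mx2 had 5.56, 1.015 and 1.54 CPM under the Ctl MSC label against 0.277, 0.355 and 0.278 in MSC-TPr, and the MSC-TPr libraries held 5 or 6 reads each. Its log2 fold change was −3.13 over 6 libraries (edgeR adjusted p = 0.155, SE 0.750) and −2.004 over libraries 2 and 3 (edgeR adjusted p = 0.0126, SE 0.431). Mx1 did not pass the filter on low counts, with 12, 6 and 9 reads in Ctl MSC and 0, 1 and 0 reads in MSC-TPr. Over the groups this was 27 reads against 1, a ratio of 28.6 with a 95% exact counting interval from 4.71 to 1170, which leaves out the spread between libraries. DESeq2, which tested Mx1, called it lower (adjusted p = 0.0356).

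**Figure D3:**
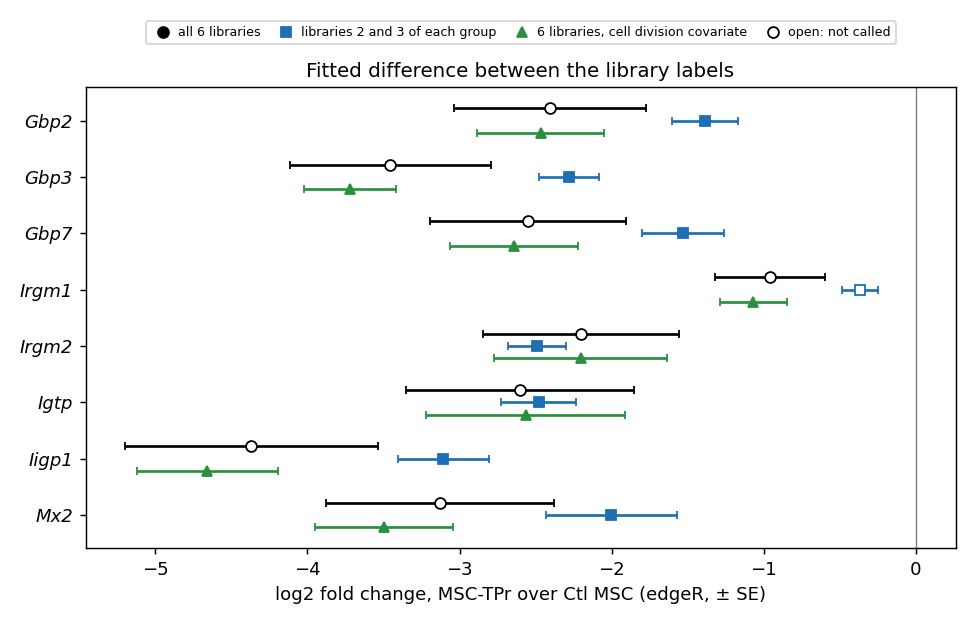
Log2 fold change of MSC-TPr over Ctl MSC with its SE (edgeR) for the 8 GTPase genes tested, over all 6 libraries (black), over libraries 2 and 3 of each label (blue) and over 6 libraries with cell division as a covariate (green), filled where the gene was called. All values lie below 0, none is called over 6 libraries without the covariate, and Irgm1 lies nearest 0.

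The members were compared with each other by CPM per kilobase of exon, a level per length. Irgm1 was the highest in both groups, with 15.5 ± 8.46 in Ctl MSC and 7.99 ± 0.591 in MSC-TPr (SD, n = 3 each). It was followed in Ctl MSC by Gbp2 (7.87), Igtp (6.04), Gbp3 (5.83), Irgm2 (5.11), Gbp7 (2.67), Iigp1 (2.12), Mx2 (0.749) and Mx1 (0.136). Over the Ctl MSC libraries the ranges of all neighbours in this order overlapped except those of Mx2 and Mx1. In Ctl MSC 2 and Ctl MSC 3, Irgm2 (3.37 and 3.51) ranked directly after Gbp2, above Gbp3 (3.01 and 2.75) and Igtp (2.88 and 3.49). In MSC-TPr the order was Irgm1, Gbp2 (1.48), Irgm2 (1.11), Igtp (0.992), Gbp3 (0.529), Gbp7 (0.455), Iigp1 (0.102), Mx2 (0.0839) and Mx1 (0.00521). Here Irgm1 stood clear of Gbp2, Gbp7 of Iigp1 and Mx2 of Mx1, and the other neighbours overlapped. In MSC-TPr 1 alone, Irgm2 (2.12) and Igtp (1.83) ranked above Gbp2 (1.56).

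Irgm1 took a larger share of the family in MSC-TPr. Of the summed CPM of the 9 genes, it held 42.7%, 55.2% and 53.3% under the Ctl MSC label against 68.3%, 80.0% and 78.9% in MSC-TPr. The share of Iigp1 went the other way, from 4.12% to 7.85% in Ctl MSC to 0.728% to 1.26% in MSC-TPr. Summed over the 9 genes, the family reached 343.9, 114 and 114 CPM under the Ctl MSC label against 64.1, 56.5 and 63.7 in MSC-TPr. The 3 GBPs summed to 26.3 to 109 CPM against 6.86 to 9.23 CPM, the 4 IRGs to 85.3 to 229 CPM against 49.2 to 55.9 CPM, and the 2 Mx genes to 1.33 to 6.28 CPM against 0.277 to 0.414 CPM.

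Ctl MSC 1 set much of the spread within Ctl MSC. It held 4.07 to 4.20 times the mean of Ctl MSC 2 and 3 for the GBPs, 5.39 times for Iigp1, 4.34 times for Mx2, 3.69 times for Igtp, 2.45 times for Irgm2, 2.38 times for Irgm1 and 1.77 times for Mx1. Without this library the log2 fold change of Irgm1 was −0.41 and that of Iigp1 −3.07, and edgeR called 2 members lower, Gbp3 and Iigp1, where 0.862% of all genes tested were. Ctl MSC 1, with high cell division, had the highest mean centred log2 CPM of the 8 GTPases tested (2.43), and MSC-TPr 2 and 3, with cell division as high, had the lowest (−1.34 and −1.28). Among the libraries with low cell division, Ctl MSC 2 and 3 had 0.52 and 0.60 and MSC-TPr 1 had −0.94. With cell division as a covariate, edgeR called all 8 members tested lower (adjusted p from 0.00050 to 0.0425), where 7.42% of all genes tested were, and Irgm1 then had a log2 fold change of −1.068. In this fit only Ctl MSC 1 and MSC-TPr 1, the libraries that stood apart, separate label from cell division. The covariate result rests on their labels as given.

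**Figure D4:**
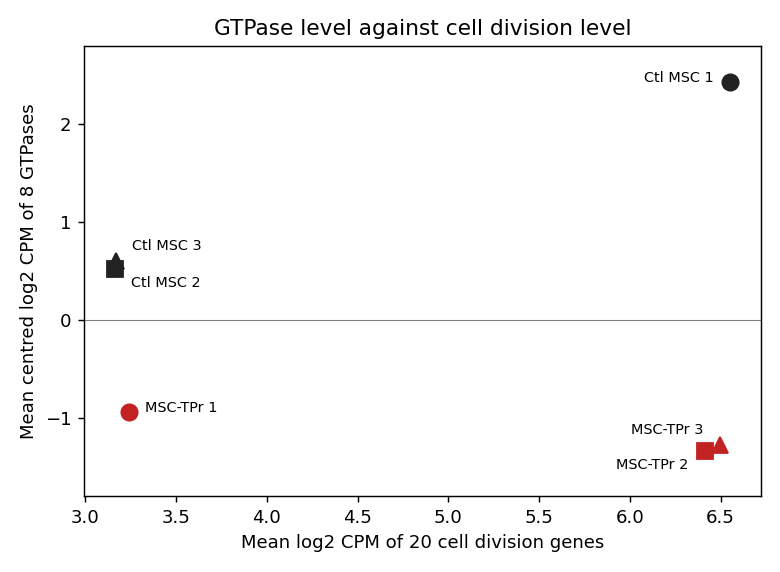
Mean centred log2 CPM of the 8 GTPase genes tested against log2 CPM averaged over 20 cell division genes, 1 point per library (Ctl MSC in black, MSC-TPr in red). At both levels of cell division the Ctl MSC libraries lie above 0 and the MSC-TPr libraries below it, and Ctl MSC 1 lies highest. Ctl MSC has 1 library at the high level and MSC-TPr has 1 at the low level.

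The genes with the most similar pattern over the 6 libraries were sought among 2961 genes tested whose log2 CPM averaged 1 or more and varied with an SD of 0.5 or more. By Pearson's correlation with the mean centred log2 CPM of the 8 GTPases, the closest were Xaf1 (0.988), Trim12c (0.987), Rtp4 (0.984), Isg15 (0.983), Ptges (0.983) and Coa3 (0.982). Isg15 encodes a ubiquitin-like protein, and Xaf1 and Rtp4 are also known as interferon-induced, while Ptges makes prostaglandin E and Coa3 serves the assembly of cytochrome c oxidase. Isg15 reached 106, 31.5 and 35.1 CPM under the Ctl MSC label against 5.48, 6.03 and 4.64 in MSC-TPr. None of the 6 was called over 6 libraries by edgeR (adjusted p from 0.0722 to 0.215). In all, 97 of the 2961 genes had a correlation over 0.9. The 6 points are the same libraries for every gene and share their depth, and the values are a description.

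Genes around the GTPases were then grouped by role. Interferon genes themselves were hardly detected. Of 19 found in the table, 15 had 0 reads in every library and none passed the filter, and Ifnz, named after its values were seen, had the most, with at most 6 reads in a library. A count of 0 allows up to 0.139 to 0.181 CPM at the depth of these libraries. Of 8 receptor chains and Janus kinases tested, none was called over 6 libraries by edgeR or by DESeq2, 1 had an unadjusted edgeR p under 0.05, and their median log2 fold change was −0.12. Ifnar1, a chain of the type I receptor, had a log2 fold change of −0.50 (edgeR adjusted p = 0.297, SE 0.194) over 6 libraries and fell by 0.68 over libraries 2 and 3 (edgeR adjusted p = 0.0208). The kinase gene Jak2, named after its values were seen, overlapped over 6 libraries (−0.11, SE 0.381) and fell by 0.70 over libraries 2 and 3 (edgeR adjusted p = 0.0068). None of the other 6 was called there, so that 2 of 8 were called lower, where 19.4% of all genes tested were called lower and 20.6% higher. Ifngr1 and Ifngr2, the chains for interferon-gamma, gave −0.33 (SE 0.140) and 0.22 (SE 0.142), with neither called in either fit.

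Transcription factors of the response lay on both sides of 0. Over 6 libraries, none of 9 tested was called by edgeR and 4 had an unadjusted p under 0.05, with a median log2 fold change of −0.75, while over libraries 2 and 3 of each label 5 were called lower and 1 higher, where 19.4% and 20.6% of all genes were. Irf7, which amplifies type I interferon signalling, had 8.76 to 19.2 CPM under the Ctl MSC label against 1.53 to 2.05 in MSC-TPr, a log2 fold change of −2.82 (edgeR adjusted p = 0.0504, SE 0.386) over 6 libraries. Of the ISRE-binding complex, Stat2 gave −1.57 (edgeR adjusted p = 0.0731, SE 0.249) and Irf9 −1.29 (edgeR adjusted p = 0.121, SE 0.273), both lower without overlap. Exons of Irf9 overlap Rnf31 on the same strand. DESeq2 called Stat2, Irf7 and Irf9 lower over 6 libraries, where it called 3.39% of genes lower. Irf1, a target and effector of interferon-gamma that was named after its values were seen, overlapped between the labels, with 21.5 to 60.1 CPM under the Ctl MSC label against 14.5 to 25.4 in MSC-TPr.

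Of 7 genes tested from the list of negative regulators, Usp18 was called lower and none higher over 6 libraries. Usp18, which removes Isg15 from proteins and restrains Ifnar2, fell from 22.8 to 46.3 CPM in Ctl MSC to 1.72 to 4.37 CPM in MSC-TPr, a log2 fold change of −3.49 (edgeR adjusted p = 0.0485, SE 0.470). Socs1, which blocks Janus kinases, overlapped between the labels (−0.60, SE 0.487), as did Isg20 (−0.36, SE 0.320), which stood in this list although it is known as an antiviral exonuclease, while Pias3 did not (−0.55, SE 0.235), and none of these was called.

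Of interferon targets that are not GTPases, all 21 tested had a negative log2 fold change over 6 libraries, with a median of −2.38 against −2.58 for the 8 GTPases. Of these 21, 16 were lower without overlap, as were 12.1% of all genes tested. Rsad2 (viperin), Oasl2 and Ifi44 were called lower, with log2 fold changes of −2.38 (SE 0.292), −3.59 (SE 0.406) and −3.88 (SE 0.343) and edgeR adjusted p of 0.0352, 0.0307 and 0.0142. Oas2 (−4.32, SE 0.614, edgeR adjusted p = 0.0587), Ifit3 (−2.71, SE 0.416, edgeR adjusted p = 0.0697) and the RNA sensor Ddx58 (−2.11, SE 0.325, edgeR adjusted p = 0.0697) followed in order of p. Psmb8, Psmb9, Tap1, B2m and Ifih1 were the 5 targets whose labels overlapped, and Psmb9 is also a gene of the construct. B2m, the light chain of MHC class I, was nevertheless called lower over libraries 2 and 3 (−0.57, edgeR adjusted p = 0.0152). The class I heavy chain gene H2-K1 was lower without overlap over 6 libraries (−0.63, edgeR adjusted p = 0.257, SE 0.216) and called lower over libraries 2 and 3 (−0.93, edgeR adjusted p = 0.0018). Apart from Psmb9, these targets were named after their values were seen. Over libraries 2 and 3, 17 of the 21 were called lower and none higher, where 19.4% and 20.6% of all genes tested were. DESeq2 called 14 lower over 6 libraries, where it called 3.39% of genes lower. The edgeR calls of Usp18, Rsad2, Oasl2 and Ifi44 over 6 libraries were all lost when Ctl MSC 2, Ctl MSC 3, MSC-TPr 2 or MSC-TPr 3 was left out.

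Of 20 further GBP and IRG genes in the table, 8 were tested. None was called over 6 libraries by edgeR and 5 had an unadjusted p under 0.05, with a median log2 fold change of −2.58. Of the 8, 6 were lower without overlap, as were 12.1% of all genes tested. DESeq2 called 5 of 13 lower, where it called 3.39% of genes lower. Gbp6, on chromosome 5, had 7.79, 8.33 and 8.11 CPM under the Ctl MSC label against 1.94, 0.710 and 1.16 in MSC-TPr, a log2 fold change of −2.66 (edgeR adjusted p = 0.0595, SE 0.393). Unlike the 9 members, Gbp6 was not high in Ctl MSC 1. Gm43302 overlaps its exons on that strand, which makes the count uncertain. Gm4951 and F830016B08Rik, IRG genes that are also on chromosome 18, gave −4.37 (edgeR adjusted p = 0.0774, SE 0.723) and −3.85 (edgeR adjusted p = 0.137, SE 0.866). Both had only 1 to 5 reads in each MSC-TPr library and passed the filter through their Ctl MSC counts. The counts and the median of the genes tested here therefore depend in part on the filter. Gbp4 was an exception in direction, with 0 to 0.121 CPM under the Ctl MSC label against 0.332 to 0.974 in MSC-TPr. It did not pass the filter of edgeR, and DESeq2 gave a log2 fold change of 3.35 (DESeq2 adjusted p = 0.0953, SE 1.24), which was not called. Irgq and 9930111J21Rik1 overlapped between the labels. Gbp4, Irgq and 9930111J21Rik1 were named after their values were seen.

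The machinery on which GBPs and IRGs depend or act was examined next. Of 12 genes of ATG8 conjugation, the autophagy proteins that steer IRGs and GBPs to their membranes, none was called over 6 libraries by edgeR or DESeq2, none had an unadjusted edgeR p under 0.05 and none was free of overlap, with a median log2 fold change of 0.03. Gabarapl2, Map1lc3a and Sqstm1, with the lowest p in that fit, gave 0.37 (SE 0.251), 0.265 (SE 0.193) and 0.31 (SE 0.387). Over libraries 2 and 3 the median was −0.28, and 3 of the 12 were called lower and none higher, where 19.4% and 20.6% of all genes tested were. Those called were Atg7 (−0.58), Gabarapl1 (−0.86) and Map1lc3b (−0.64), named after their values were seen. Of 5 genes tested of the inflammasome route that GBPs act upstream of, none was called over 6 libraries by edgeR. Of these 5, 3 had an unadjusted p under 0.05 and 3 were lower without overlap, against 15% and 12.1% of all genes tested. The caspase that senses lipopolysaccharide, Casp4, gave −1.22 (edgeR adjusted p = 0.147, SE 0.284), the pore-forming Gsdmd −1.23 (edgeR adjusted p = 0.141, SE 0.282) and Casp1 −0.94 (edgeR adjusted p = 0.265, SE 0.331). DESeq2 called Casp4 and Gsdmd lower over 6 libraries, where it called 3.39% of genes lower. Over libraries 2 and 3, where 6 genes of this route were tested, Casp4 (−1.49), Gsdmd (−0.83) and Aim2 (−0.53) were called lower and Nlrp3 higher (2.79, edgeR adjusted p = 0.00998). Of all genes tested in that fit, 19.4% were called lower and 20.6% higher. Nlrp3 had 0.110 to 0.160 CPM under the Ctl MSC label against 0.166 to 1.24 in MSC-TPr. These levels rest on 2 or 3 reads per Ctl MSC library and on 3, 21 and 16 reads in MSC-TPr. Nlrp3 did not pass the filter over 6 libraries. Aim2 and Nlrp3 were named after their values were seen.

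Membrane GTPases of the same superfamily that are not known as interferon-induced served for contrast. Of 9 dynamins, mitofusins, atlastins and Opa1 tested, none was called over 6 libraries by edgeR, 1 had an unadjusted p under 0.05, and their median log2 fold change was −0.13. Atl2, an endoplasmic reticulum atlastin, rose over libraries 2 and 3 (0.69, edgeR adjusted p = 0.0112), with 60.1 to 64.7 CPM under the Ctl MSC label against 89.6 to 111 in MSC-TPr. Of the 9 genes, Atl2 was the 1 called in that fit, where 20.6% of all genes tested were called higher and 19.4% lower. Over 6 libraries it gave 0.67 (edgeR adjusted p = 0.124, SE 0.144), and DESeq2 called it higher, as it did 244 of 12934 genes. Atl1 and Atl3 gave 0.38 (SE 0.280) and −0.28 (SE 0.208). The median of this group and that of the 9 members were not compared by a test.

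**Figure D5:**
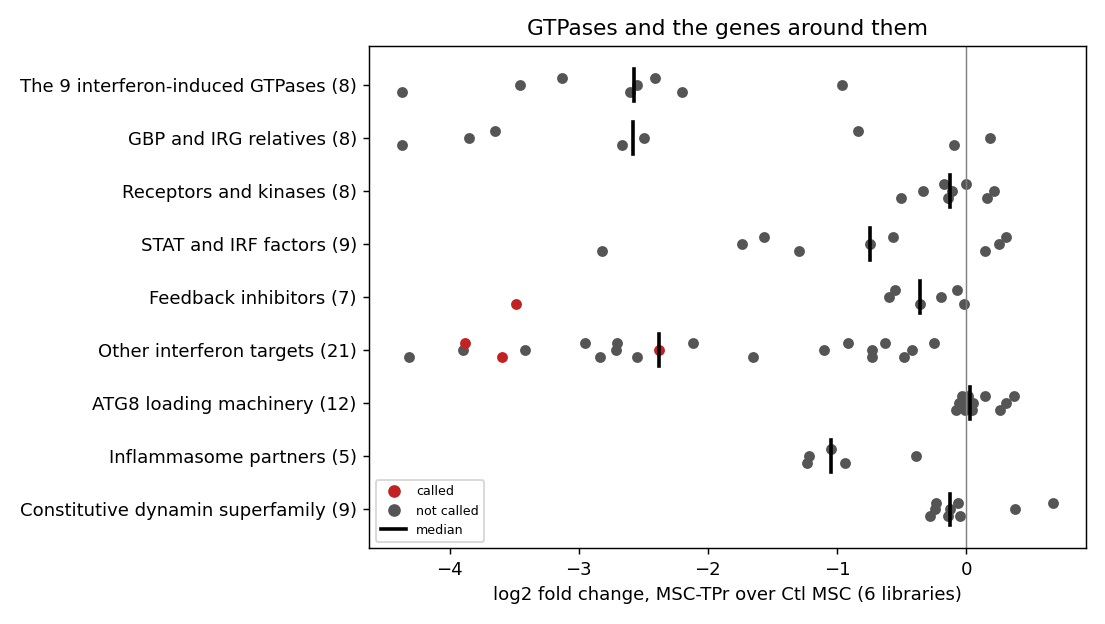
Log2 fold change of MSC-TPr over Ctl MSC over all 6 libraries (edgeR) for the GTPases and for the genes of each role, 1 point per gene tested with their number in parentheses, red where called, and a black bar at the median. The GTPases, their relatives and the other interferon targets have medians from −2.58 to −2.38, while the receptors, the ATG8 machinery and the constitutive dynamin superfamily lie near 0. Between them lie the inflammasome partners (−1.05), the STAT and IRF factors (−0.75) and the feedback inhibitors (−0.36).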

How the data were processed

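The authors sequenced polyadenylated RNA with a stranded kit, aligned the reads to mm10 and deposited raw counts per gene symbol from Htseq-count, not normalized. The submitters' processing notes name CASAVA 1.8.2, Trimmomatic 0.35 and TopHat2 2.1.0, and the strand setting and annotation of the counting are not given in the sources used here. Of the reads listed per library, 79.2% to 86.2% were on genes, and the summary lines of the table were left out of library sizes.

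The main test was the quasi-likelihood test of edgeR 4.0.16 in R 4.3.3, with TMM scaling, filterByExpr and the group alone in the design, and p-values were adjusted by Benjamini-Hochberg over all genes tested. Calls used the study's thresholds, 0.05 for the adjusted p and 0.5 for the size of the log2 fold change. The SE is the size of the log2 fold change divided by the square root of F. DESeq2 1.42.0 was an alternative. Both tools were tested on simulated counts. Coordinates and exon lengths came from GENCODE M21 (mm10) and promoters from RefSeq. The members and lists were chosen with earlier results of these data known. The genes named were the members, in each list those called and up to 3 more with the lowest p, and the 6 most alike in pattern. Same-numbered libraries were compared by the correlation of their deviations from the group means. Counts of no pair of libraries of a group agreed within sampling noise. Ctl MSC 2 and 3 came closest, with a chi-square per gene of 4.97 against 52.3 to 200 for the other pairs. Alternatives were RLE normalization, other filters on low counts (none, or at least 10 counts in every library), the replicate number as a block, cell division as a covariate, libraries 2 and 3 only, and leaving out each library. A gene of the lists is not reported here by name.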

Additional observations from a re-analysis of the deposited data

How the results depend on the processing

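Every member had a negative log2 fold change in each of the 13 alternatives in which it was tested (105 of 105 values, Mx1 −4.38 without a filter and −4.73 with DESeq2), whereas the number called depended on the tool and the libraries. No member overlapped between the labels, so leaving out libraries or changing the filter, the scaling or the tool could hardly change a sign. The count of negative values is therefore no separate support. Against 0 members, 51 genes of the whole table and 4 genes of the pathway lists called over 6 libraries, DESeq2 called 8, 683 and 27, libraries 2 and 3 of each label gave 7, 4854 and 40, and the cell division covariate gave 8, 1458 and 35. Without a filter 9 list genes were called, and with at least 10 counts in every library 31 genes of the table. Leaving out 1 library gave 0 to 2 members, 0 to 108 genes of the table and 0 to 10 list genes, each highest without Ctl MSC 1 and with no list gene without Ctl MSC 2, Ctl MSC 3, MSC-TPr 2 or MSC-TPr 3, and a median of the members from −3.07 (without MSC-TPr 1) to −1.66 (without Ctl MSC 1). RLE normalization changed no call among the members. The cause of these changes was not tested, but the common dispersion was 0.124 over 6 libraries and 0.0168 over libraries 2 and 3. With the replicate number as a block, 0 members, 0 genes of the table and 0 list genes were called, the median of the members was −2.44, and 7 of the 8 members had an unadjusted p under 0.05. Deviations of same-numbered libraries correlated at −0.765, −0.594 and −0.604 across genes. Deviations within a group balance each other and library 1 of each group stood apart, so these values depend on each other. They cannot decide whether the numbers pair the libraries. At this depth the change of Mx1 and, in MSC-TPr, the level of Mx2 rest on few reads.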
